A study of Mus musculus with 3 samples.

Results

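A set of 7 long noncoding RNA genes was followed in chromatin-associated RNA of mouse macrophages. It held 5 microRNA host genes (Mir155hg, Mir22hg, Mir17hg, Mir142hg and Dleu2) and 2 genes on the strand opposite to Ptgs2 (Ptgs2os and Ptgs2os2). Neither of these 2 overlaps Ptgs2 in the annotation. The genes were chosen by gene symbol and are 7 of the 55536 annotated genes. All 7 were found in the gene tables, together with their 24 annotated transcripts. The libraries came from bone marrow-derived macrophages (BMDM), primary cells of C57BL/6J mice whose age and sex were not collected. All libraries were made from the chromatin fraction after ribosomal RNA depletion and belonged to 1 group. These cells had lipid A at 100 ng/ml for 12 h, a washout of 12 h, and lipid A again at 100 ng/ml for 30 min. Lipid A is the part of lipopolysaccharide that activates the receptor TLR4. The 3 biological replicates carried 1 donor identifier, so tests over them measure the spread between these libraries. No untreated or singly treated cells were analysed here, so the levels do not measure a response to the treatment.

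MicroRNAs are cut from hairpins in longer primary transcripts. The nuclear complex of Drosha and Dgcr8 releases the hairpin while the host RNA is still close to its gene, Dicer1 cuts it to a duplex, and an Argonaute protein takes 1 strand as the guide. The seed, near the 5′ end of the guide, pairs with target messages. In macrophages, miR-155 is known as an inducible microRNA of inflammatory signalling and miR-142 as a marker of blood cells. The miR-17 cluster is linked to proliferation, and the miR-15a and miR-16 pair lies in a locus deleted in human lymphoid leukaemias. Ptgs2 encodes cyclooxygenase 2, the inducible enzyme of prostaglandin synthesis. Ptgs2os2 carries the synonym Lincrna-cox2 in RefSeq, under which it is known as a regulator of immune genes in mouse macrophages.

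The mature sequences give the identity of what the host RNAs can release, except for miR-142b. The 5 host loci hold 12 annotated microRNA genes with 22 mature sequences and 19 distinct seeds in RefSeq (GRCm38.p6). Of these genes, 11 lie on the host strand. Sequences run 5′ to 3′ with the seed, bases 2 to 8, in capitals. The set below holds at least 1 arm of each of the 12 genes, with every arm that shares a seed.
miR-155-5p: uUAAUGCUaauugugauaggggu
miR-22-3p: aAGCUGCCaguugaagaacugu
miR-142a-5p: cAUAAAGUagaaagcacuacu
miR-142a-3p: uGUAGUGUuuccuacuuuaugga
miR-142b: uCCAUAAAguaggaaacacu
miR-17-5p: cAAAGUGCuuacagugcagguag
miR-20a-5p: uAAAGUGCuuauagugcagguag
miR-18a-5p: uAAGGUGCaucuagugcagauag
miR-19a-3p: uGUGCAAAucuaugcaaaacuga
miR-19b-3p: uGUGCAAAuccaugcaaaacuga
miR-92a-3p: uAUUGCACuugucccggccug
miR-15a-5p: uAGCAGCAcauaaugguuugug
miR-16-5p: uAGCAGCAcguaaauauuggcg
In all, 3 seeds were held by more than 1 sequence: AAAGUGC by miR-17-5p and miR-20a-5p, GUGCAAA by miR-19a-3p and miR-19b-3p, and AGCAGCA by miR-15a-5p and miR-16-5p. Each of these pairs lies within a single host gene. The 2 members of each pair therefore share both a seed and a host. miR-142b is annotated on the strand opposite to miR-142a and Mir142hg, so it is not part of Mir142hg RNA. No mature microRNA level was measured, and the values below are those of the host genes and of annotated hairpin rows.

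Levels are in TPM, an abundance per transcript length scaled to a fixed sum, so a comparison between genes depends on the length used. For Mir142hg this effective length was only 72.5, 48.0 and 57.0 bases in replicates 1, 2 and 3, so its TPM is less certain. Dleu2, the host of miR-15a and miR-16-1, had 175, 146 and 147 TPM in replicates 1, 2 and 3. Its 3 libraries lay close together. In bulk libraries such as these, fewer cells with an RNA and less of it per cell cannot be told apart. Mir155hg, the host of miR-155, had 165, 53.4 and 160 TPM. Replicate 2 stood well below the other two. Mir22hg, the host of miR-22, had 110, 92.4 and 156 TPM, with replicate 3 the highest. Mir142hg, the host of miR-142, had 58.8, 110 and 104 TPM, with replicate 1 the lowest. Mir17hg, the host of a cluster of 6 hairpins, was far lower, at 1.67, 2.20 and 3.94 TPM. The 2 genes on the strand opposite to Ptgs2 were the lowest. Ptgs2os2 had 1.21, 0.340 and 1.97 TPM, and Ptgs2os had 0.240, 0.120 and 0.610 TPM.

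**Figure D1:**
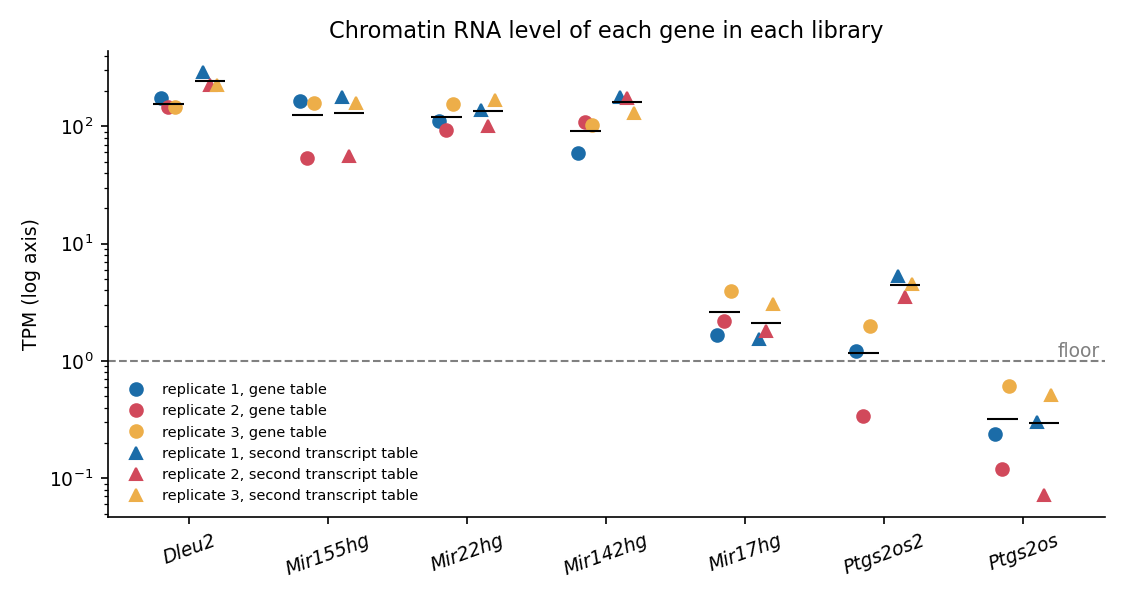
TPM of the 7 genes on a log axis, 1 point per library (circles, gene table; triangles, second transcript table summed per gene), with horizontal bars at the means of 3 libraries and a dashed line at 1 TPM. Dleu2, Mir155hg, Mir22hg and Mir142hg lie between 53.4 and 175 TPM in the gene table, and Mir17hg, Ptgs2os2 and Ptgs2os lie at 3.94 TPM or less.

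In means, Dleu2 had 156 ± 16.7 TPM, Mir155hg 126 ± 63.1 TPM and Mir22hg 120 ± 32.7 TPM (SD, n = 3 each). Mir142hg had 90.7 ± 27.8 TPM, Mir17hg 2.60 ± 1.19 TPM, Ptgs2os2 1.17 ± 0.816 TPM and Ptgs2os 0.323 ± 0.255 TPM (SD, n = 3 each). The order of neighbours was not settled at the top. Dleu2 over Mir155hg, Mir155hg over Mir22hg and Mir22hg over Mir142hg each held in 2 of 3 libraries, and their ranges overlapped. In the second transcript table Dleu2 over Mir155hg held in 3 of 3 libraries and each of the other two in 1 of 3. Mir142hg lay above Mir17hg in 3 of 3 libraries with no overlap, by 5.11 ± 0.448 on the log2(TPM + 0.1) scale (SD, n = 3). Without a correction for length, in counts per fixed sum of reads, Mir142hg lay below Mir17hg in 3 of 3 libraries. Mir17hg lay above Ptgs2os2 in 3 of 3 libraries of the gene table, but in the second transcript table that order held in 0 of 3. The TPM ranges of both pairs, Mir17hg with Ptgs2os2 and Ptgs2os2 with Ptgs2os, overlapped in the gene table. Ptgs2os2 lay above Ptgs2os in 3 of 3 libraries of both tables, by 1.497 ± 0.475 on that log2 scale in the gene table (SD, n = 3). An exact sign-flip test over 3 libraries cannot give a two-sided p below 0.25.

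Each gene was tested one-sided against 1 TPM with limma over all 24180 genes with a nonzero TPM, and 5 of the 7 passed. Of all genes tested, 50.5% passed, and of the 3940 long noncoding genes among them, 29.4% passed. By annotated type, 19.6% of lincRNA genes passed, the type of Mir155hg, Mir17hg, Mir142hg and Ptgs2os2. Of processed_transcript genes, the type of Mir22hg, Dleu2 and Ptgs2os, 34.7% passed. Differences from the floor are on the log2(TPM + 0.1) scale, with p-values adjusted over all 24180 genes. Dleu2 lay 7.14 above the floor (SE 0.11, limma adjusted p = 5.28e-07). Mir22hg lay 6.73 above it (SE 0.17, limma adjusted p = 1.02e-06), Mir155hg 6.67 (SE 0.35, limma adjusted p = 1.62e-05) and Mir142hg 6.31 (SE 0.20, limma adjusted p = 2.36e-06). Mir17hg lay 1.21 above it (SE 0.30, limma adjusted p = 0.0103). That call was lost without replicate 3, where the difference was 0.88 (limma adjusted p = 0.0564). Ptgs2os2 stood at -0.05 (SE 0.50, limma adjusted p = 0.931) and Ptgs2os at -1.55 (SE 0.43, limma adjusted p = 1.00), so neither passed. The median TPM was 90.7 for the 7 genes, which is the mean of Mir142hg, 2.02 for all genes tested and 0.547 for the long noncoding genes tested. Ranked by mean TPM among those 3940 genes, Dleu2 was number 17, Mir155hg 24, Mir22hg 25 and Mir142hg 34. The rank of Mir142hg rests on few counts and a short effective length. Mir17hg was number 927, Ptgs2os2 1468 and Ptgs2os 2290.

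The labelled cell type was checked against its markers. All 8 macrophage markers passed the test against 1 TPM, with values of 29.0 to 367 TPM over the libraries. Of 10 markers of other cells, 6 were listed at 0 in every library and none exceeded 0.560 TPM. None of the 4 that could be tested with limma passed, at an adjusted or an unadjusted p under 0.05. The second transcript table put 2 of the 10 above the floor. Replicates 1, 2 and 3 had totals of 12532722, 18395358 and 18237730 expected counts. They were made from 1 µg, 250 ng and 500 ng of RNA in that order, so an effect of input cannot be told apart from one of replicate.

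Mir155hg (ENSMUSG00000097418.7, chr16:84703167-84715245, plus strand, mm10) is a lincRNA of 2 annotated transcripts with the hairpin in their shared second exon. Almost all of its expected counts were given to the transcript with the downstream start. Mir155hg-201 took 98.7%, 96.8% and 96.0% of them in replicates 1, 2 and 3, a mean of 97.1% ± 1.37 (SD, n = 3). Mir155hg-202, which starts 9856 bases upstream, took the other 2.86% ± 1.37 (SD, n = 3). The second transcript table gave Mir155hg-202 a larger share, 17.1%, 25.7% and 17.0%, a mean of 19.9% ± 5.03 (SD, n = 3). Mir155hg-201 was thus the main transcript in every library of both tables, while the size of the remainder depended on the table. The transcripts differ only in their first exons, so the split rests on reads that reach these bases.

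The Mir155 hairpin (chr16:84714140-84714204) is printed with its 2 mature arms in capitals, because it lies wholly within the counted exon of both host transcripts.
Mir155 hairpin: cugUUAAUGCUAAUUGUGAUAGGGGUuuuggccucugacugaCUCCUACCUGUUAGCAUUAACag
It starts at base 159 of Mir155hg-201 and at base 257 of Mir155hg-202. The hairpin row itself was listed at 0 in all 3 libraries of both kinds of table. Its effective length was 0 in the gene table, as it was for all 12 microRNA genes, so these rows say nothing of hairpin levels.

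Mir22hg (ENSMUSG00000085148.1, chr11:75461539-75466676, plus strand) also carries its hairpin in an exon of both transcripts. The 3-exon Mir22hg-202 took 87.8%, 92.0% and 90.3% of the expected counts, a mean of 90.0% ± 2.12 (SD, n = 3). The 2-exon Mir22hg-201 took 9.98% ± 2.12, against 20.2% ± 2.39 in the other table (SD, n = 3 each). Per length the 2 transcripts were closer, since Mir22hg-201 is short. Mir22hg-202 had 57.7, 54.8 and 87.7 TPM, and Mir22hg-201 had 52.6, 37.7 and 68.1 TPM. That order was reversed in 3 of 3 libraries of the second transcript table, with 48.8, 42.2 and 66.7 TPM for Mir22hg-202 and 89.5, 57.7 and 103 TPM for Mir22hg-201. The protein-coding gene Tlcd2 runs along the same strand and shares 206 exon bases with Mir22hg. Its level was 0.890 ± 0.613 TPM in the gene table and 7.66 ± 2.02 TPM in the second transcript table (SD, n = 3 each), which gave it 63.8, 159 and 170 estimated counts.

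**Figure D2:**
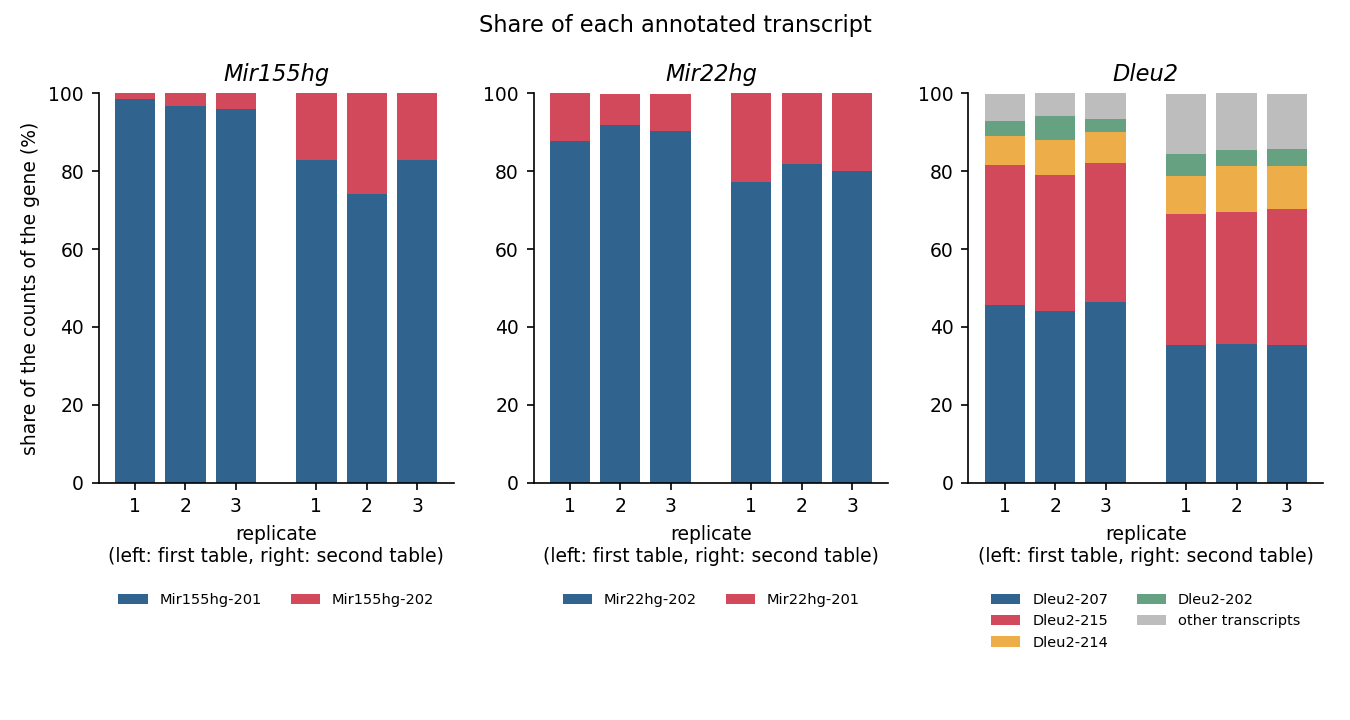
Share of each annotated transcript in the counts of Mir155hg, Mir22hg and Dleu2 (%), 1 stacked bar per replicate, with the first transcript table on the left and the second on the right of each panel. Mir155hg-201 and Mir22hg-202 hold most counts in every bar, and Dleu2-207 and Dleu2-215 together hold the largest part of Dleu2.

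Dleu2 (ENSMUSG00000097589.9, chr14:61602839-61682373, minus strand) was the most complex host, with 15 transcripts in 3 classes. In the annotation, 8 multi-exon transcripts start at the outer end of the gene, 5 start at least 33551 bases further in, and 2 are single exons. The inner class took 51.0%, 51.1% and 51.1% of the expected counts of Dleu2. The single exons took 43.5%, 44.0% and 43.8%, and the outer class 5.52%, 4.89% and 5.11%. These shares hardly moved between libraries, with means of 51.1% ± 0.0596, 43.8% ± 0.287 and 5.17% ± 0.318 (SD, n = 3 each). In the second transcript table the single exons came first, with a mean of 45.2% ± 1.39, then the inner class with 43.5% ± 0.908 and the outer class with 11.3% ± 0.480 (SD, n = 3 each). By share of counts, the outer class was thus the smallest in both tables. Per length the classes lay closer together in the first transcript table. There the TPM of the outer class summed to 46.6 ± 0.705, against 59.0 ± 9.95 for the inner class and 50.5 ± 6.28 for the single exons (SD, n = 3 each). In the second transcript table the outer class was the largest in 3 of 3 libraries, with a mean of 135 ± 22.4 TPM, against 60.5 ± 11.7 for the inner class and 51.1 ± 5.22 for the single exons (SD, n = 3 each). The order of the classes therefore depended on the scale and on the table.

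Transcripts with long exons held most of the expected counts. Dleu2-207, Dleu2-215 and Dleu2-214 together took 89.2%, 88.1% and 90.1% of the expected counts in replicates 1, 2 and 3. Dleu2-207, a 3-exon lincRNA of the inner class, had 53.5, 39.7 and 42.6 TPM. Dleu2-215, a single exon of 4098 bases annotated as TEC (an annotation class for transcripts awaiting experimental evidence), had 35.8, 27.0 and 28.0 TPM. In the outer class, Dleu2-206 had 27.7, 27.4 and 28.3 TPM and the 7-exon Dleu2-201 had 14.6, 9.36 and 10.9 TPM. Dleu2-206 was higher in the second transcript table, at 80.5, 60.9 and 59.0 TPM, and above Dleu2-207, at 38.0, 29.6 and 29.3 TPM. A further 2 TEC genes on the Dleu2 strand lie inside the locus and share no exon base with it. Gm37472 had 63.3 ± 12.9 TPM and Gm37420 had 53.3 ± 9.25 TPM (SD, n = 3 each), and each lay above Dleu2-207 in every library. The parts of the locus between the spliced exons were therefore also covered by RNA of this strand or, since the use of strand in counting is not given in the sources used here, of either strand.

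Dleu2-207 and Dleu2-215 end and begin on either side of the microRNA hairpins. A gap of 406 bases separates the last long exon of Dleu2-207 from Dleu2-215. Mir15a lies in this gap, 188 bases beyond that exon, and Mir16-1 lies in it except for 13 bases that fall within Dleu2-215. Levels before and after the gap were compared per length, with Dleu2-202 added to Dleu2-207, since it shares the long exon. After the gap, Dleu2-215 had 35.8, 27.0 and 28.0 TPM, against 57.8, 45.1 and 45.6 TPM before it. The level after the gap was 0.620, 0.598 and 0.613 of that before it, a mean of 0.610 ± 0.0115 (SD, n = 3), and lower in 3 of 3 libraries. By the other quantification the mean ratio was 0.733 ± 0.0232 (SD, n = 3), again lower in each of the 3. The cause of this difference was not tested.

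**Figure D3:**
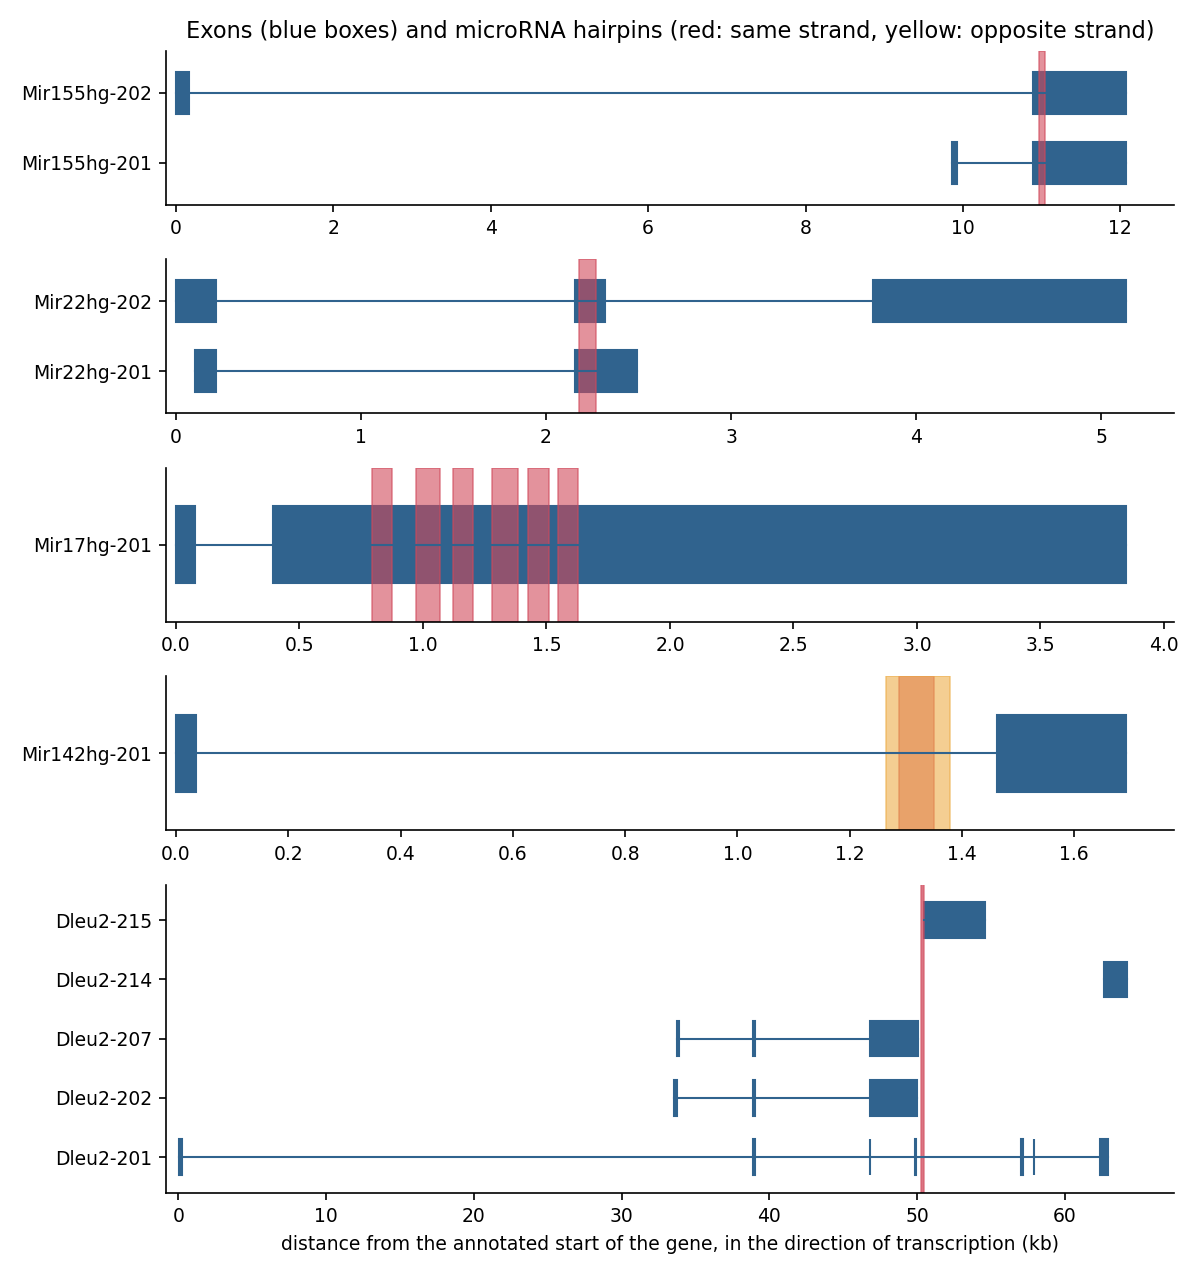
Annotated exons (blue boxes) and microRNA hairpins (red, same strand; yellow, opposite strand) of the 5 host genes, by distance from the annotated start of the gene in kb, with 5 of the 15 transcripts drawn for Dleu2. The hairpins of Mir155hg, Mir22hg and Mir17hg lie in exons, those of Mir142hg in the intron, and those of Dleu2 between the long exon of Dleu2-207 and Dleu2-215.

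Mir17hg (ENSMUSG00000089726.2, chr14:115042879-115046727, plus strand) has 1 annotated transcript, of 3536 bases, with all 6 hairpins in its second exon. It had 60, 115 and 193 expected counts. The exact Poisson 95% intervals of its TPM were 1.27 to 2.15 in replicate 1, 1.82 to 2.64 in replicate 2 and 3.40 to 4.54 in replicate 3. Replicate 3 was thus above the other two by more than counting error, which is all that these intervals cover. The hairpins start at bases 480, 660, 809, 966, 1114 and 1236 of the transcript, in the order Mir17, Mir18, Mir19a, Mir20a, Mir19b-1 and Mir92-1. None had a count in any table.

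Mir142hg (ENSMUSG00000084796.1, chr11:87755577-87757270, plus strand) had a high TPM from few counts. Its single annotated transcript has 269 bases, and it had 46, 84 and 88 expected counts. The effective lengths used for its TPM were 72.5, 48.0 and 57.0 bases, against 3320, 3270 and 3291 bases for Mir17hg. Without a correction for length, in TMM-scaled CPM (counts per fixed sum of reads), Mir142hg had 3.68, 4.45 and 5.06, and Mir17hg had 4.81, 6.09 and 11.1. The 2 genes therefore stood in the opposite order on that scale in 3 of 3 libraries. The TPM of Mir142hg had exact Poisson 95% intervals of 43.1 to 78.4 in replicate 1, 87.4 to 136 in replicate 2 and 83.2 to 128 in replicate 3. These intervals take the effective length of each library as fixed, and that length was longest in replicate 1. In CPM replicate 1 was also the lowest, but the libraries spanned a log2 range of only 0.455. The low TPM of replicate 1 thus depends in part on the length term. The second transcript table gave it 177, 174 and 130 TPM, with replicate 1 now the highest.

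The Mir142 hairpin (chr11:87756864-87756927, plus strand) is shown because it lies in the intron of Mir142hg, with Mir142b annotated over it on the other strand. Capitals mark the miR-142a-5p and miR-142a-3p arms.
Mir142 hairpin: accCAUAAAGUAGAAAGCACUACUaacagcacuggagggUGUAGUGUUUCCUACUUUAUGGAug
Mir142 had no count in any table. Mir142b (chr11:87756841-87756955, minus strand) had 1 expected count in replicate 2 and 0 in the others, whereas the second transcript table gave it 100, 172 and 138 estimated counts. In that table Mir15a had 33, 42 and 36 estimated counts and Mir16-1 had 1, 2 and 1. The other 9 hairpins had none. Mir142b lies over the intron of Mir142hg on the other strand. Mir15a lies in introns of Dleu2, and Mir16-1 lies outside exons but for 13 bases. The hairpins inside host exons were at 0, and so was Mir142 in its intron. Reads of Mir142b cannot be assigned to a strand here, so they cannot be told apart from unspliced Mir142hg RNA.

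The 2 quantifications differed most for Ptgs2os2 and Mir142hg. Counts summed over libraries were 6.17 times higher in the second transcript table than in the gene table for Ptgs2os2 and 4.86 times higher for Mir142hg. Over 14981 genes the median ratio was 1.75, with quartiles of 1.47 and 2.42, and 6.30% of genes exceeded Ptgs2os2 and 8.80% exceeded Mir142hg. Over the 1640 long noncoding genes among them the median was higher, 2.42, with quartiles of 1.62 and 4.36. Mir155hg had a ratio of 1.70, Dleu2 1.48, Mir22hg 1.45 and Mir17hg 1.33, from the lowest quartile of all these genes to just under their median. Against the long noncoding genes, Dleu2, Mir22hg and Mir17hg lay below the lower quartile. For Ptgs2os2 the second table gave 5.28, 3.50 and 4.58 TPM, against 1.21, 0.340 and 1.97 TPM in the gene table. Its place below or above the floor therefore depended on the table.

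**Figure D4:**
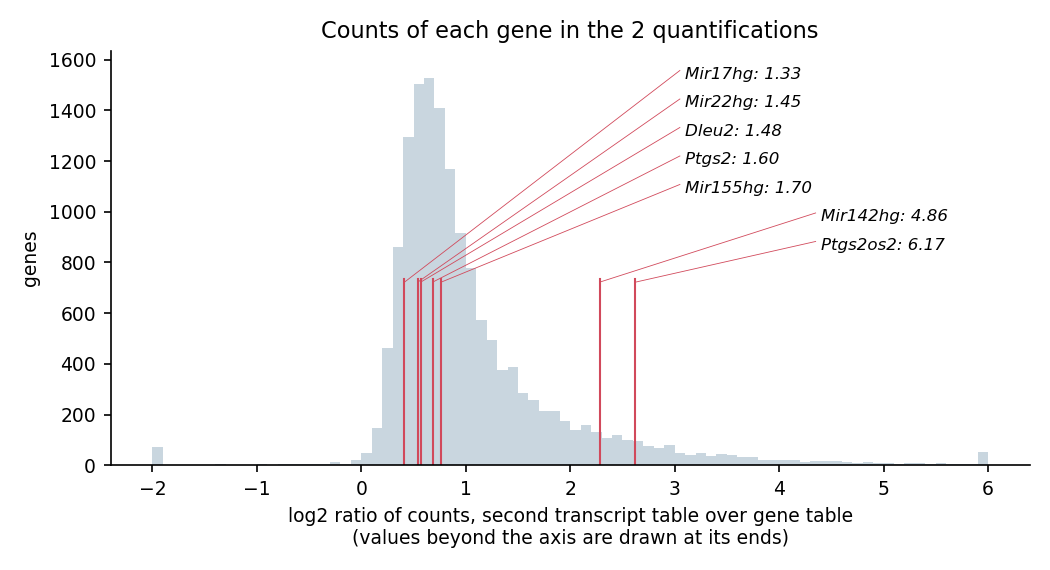
Histogram over 14981 genes of the log2 ratio of counts, second transcript table over gene table, with red lines and labels giving the linear ratio of each gene named. Ptgs2os2 (6.17) and Mir142hg (4.86) lie in the right tail and Mir17hg, Mir22hg, Dleu2, Ptgs2 and Mir155hg (1.33 to 1.70) near the peak.

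Ptgs2os (ENSMUSG00000097028.2, chr1:150074873-150099963, minus strand) starts 68 bases from Ptgs2 (chr1:150100031-150108227, plus strand) and is transcribed away from it. Ptgs2os2 (ENSMUSG00000097754.1, chr1:150159043-150164948, minus strand) starts 64917 bases from the Ptgs2 start, on the far side of Ptgs2, and its annotation does not overlap Ptgs2. Ptgs2 had 21.7, 9.65 and 45.9 TPM, a mean of 25.7 ± 18.5 TPM (SD, n = 3). It lay 4.28 above the floor on the log2(TPM + 0.1) scale (SE 0.42, limma adjusted p = 0.000234). Its mean was 15.7 TPM without replicate 3. Ptgs2os had only 4, 3 and 14 expected counts, and Ptgs2os2 had 20, 8 and 44. In the gene table, replicate 2 was the lowest and replicate 3 the highest for all 3 genes. The order was the same for Ptgs2 and Ptgs2os in the TPM of the second transcript table, but for Ptgs2os2 replicate 1 was the highest, at 5.28 TPM, and its estimated counts were 129, 143 and 172.

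Relative to Ptgs2, the divergent Ptgs2os had similar ratios in replicates 1, 2 and 3, on only 4, 3 and 14 expected counts. Its TPM was 1.11%, 1.24% and 1.33% of that of Ptgs2 in replicates 1, 2 and 3, a mean of 1.23% ± 0.112 (SD, n = 3). In the second transcript table the mean was 0.688% ± 0.118 (SD, n = 3). Ptgs2os2 stood at 5.58%, 3.52% and 4.29% of Ptgs2, a mean of 4.46% ± 1.04 (SD, n = 3). In the second transcript table that ratio ran from 7.06% to 27.3%, so it was not stable between quantifications. The exact Poisson 95% interval for Ptgs2os was 0.0247 to 0.351 TPM in replicate 2 and 0.333 to 1.02 TPM in replicate 3. At this depth the ratio of Ptgs2os to Ptgs2 in a single library is known only loosely, so its small SD does not show a stable ratio. All expected counts of Ptgs2os were given to Ptgs2os-201, a single exon of 1783 bases at the divergent start, and none to the 5-exon Ptgs2os-202. The second transcript table gave Ptgs2os-202 1, 0 and 3 estimated counts, a mean share of 8.93% ± 7.78 (SD, n = 3).

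The promoter window of Ptgs2os (RefSeq, GRCm38.p6, chr1:150099825-150100124, minus strand) is shown because it shares 256 of its 300 bases with that of Ptgs2. The window of Dleu2 (chr14:61682324-61682623, minus strand) is shown with it, as the only other window of these genes with a match. It lies at the outer start of Dleu2 and not at the inner start. The outer class took 5.17% of the expected counts, but by TPM it summed to a mean of 46.6 in the first transcript table. In the second transcript table it was the largest class by TPM, with a mean of 135. Capitals mark matches to motifs searched on both strands: the AP-1 motif TGANTCA, the TATA box TATAAA, the C/EBP motif TTGCGNAA, the E-box CACGTG, the CRE TGACGTCA, the PU.1 motif GAGGAAGT, and the kappaB consensus.
Ptgs2os promoter: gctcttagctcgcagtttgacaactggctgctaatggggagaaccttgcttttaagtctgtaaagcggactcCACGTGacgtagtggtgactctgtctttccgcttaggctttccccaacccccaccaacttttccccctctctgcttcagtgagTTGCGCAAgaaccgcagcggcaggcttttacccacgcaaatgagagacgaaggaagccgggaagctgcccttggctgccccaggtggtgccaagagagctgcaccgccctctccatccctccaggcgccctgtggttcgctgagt
Dleu2 promoter: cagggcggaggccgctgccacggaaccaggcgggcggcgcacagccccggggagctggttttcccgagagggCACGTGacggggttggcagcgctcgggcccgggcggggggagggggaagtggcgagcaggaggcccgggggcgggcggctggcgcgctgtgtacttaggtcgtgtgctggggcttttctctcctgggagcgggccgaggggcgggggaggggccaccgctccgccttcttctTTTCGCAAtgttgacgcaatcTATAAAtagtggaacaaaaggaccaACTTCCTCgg
Both windows held 1 C/EBP match and 1 E-box match, and in Ptgs2os both lay in the bases shared with Ptgs2. The C/EBP motif occurred in 0.798% of the 32817 windows and the E-box in 7.15%. Dleu2 also held a TATA match and a PU.1 match, and the PU.1 motif occurred in 3.20% of windows. The TATA box occurred in 13.6% of windows. The windows of Mir155hg, at the Mir155hg-201 start, and of Mir22hg, Mir17hg and Ptgs2os2 held no match to any of the motifs. The AP-1 motif occurred in 7.81% of windows, the kappaB consensus in 4.50% and the CRE in 1.79%. A match is a run of letters and not a measured site. The RefSeq start of Mir17hg lies 1511 bases inside the M21 locus, so its window is not the start that was counted here. Windows were available for 6 of the 7 genes.

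Mir155hg varied most among the hosts. Between libraries, TMM-scaled CPM spanned a log2 range of 1.73 for Mir155hg, at 150, 45.2 and 140 CPM in replicates 1, 2 and 3. Among 14140 genes with enough counts the median range was 0.471, and 2.02% of genes had a larger one than Mir155hg. The range was 2.27 for Ptgs2, and 0.460% of genes had a larger one. Mir17hg spanned 1.202 and Mir22hg 0.743, where 7.99% and 26.8% of genes had a larger range. Mir142hg spanned 0.455 and Dleu2 0.429, near the median. Ptgs2os2 and Ptgs2os had too few counts for that filter. Without it, they spanned 2.50 and 2.15, where the median of 24161 genes was 0.805.

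**Figure D5:**
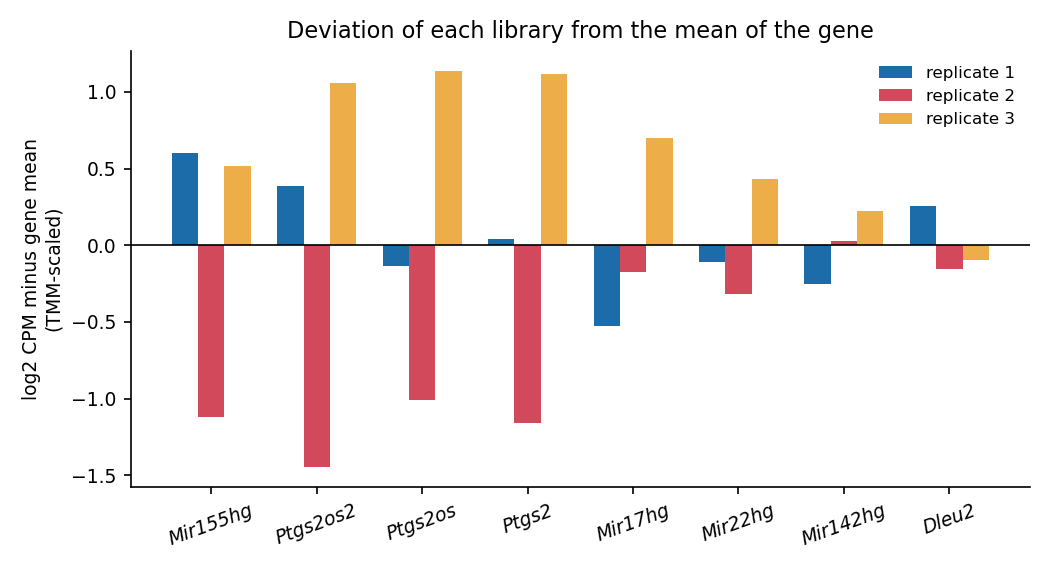
Difference of log2 TMM-scaled CPM in each library from the mean of the gene over 3 libraries, for the 7 genes and Ptgs2, with no filter on low counts. Mir155hg, Ptgs2os2, Ptgs2os and Ptgs2 lie 1.01 to 1.44 below their means in replicate 2, and Dleu2, Mir142hg and Mir22hg stay within 0.431 of theirs.

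In the gene table, replicate 2 was low for Mir155hg and for the Ptgs2 locus more than for the other hosts. Relative to its mean on the log2 scale, with no filter on low counts, replicate 2 stood at -1.12 for Mir155hg, -1.44 for Ptgs2os2, -1.01 for Ptgs2os and -1.16 for Ptgs2. The values of Ptgs2os2 and Ptgs2os rest on 8 and 3 expected counts in that library, and in the second transcript table Ptgs2os2 had 3.50 TPM there, against 5.28 and 4.58 TPM in the other two. Replicate 2 stood at -0.32 for Mir22hg, -0.17 for Mir17hg, 0.03 for Mir142hg and -0.16 for Dleu2. The median over protein-coding genes was 0.04 in that library. Replicate 2 had the smallest RNA input, and the part of input in these differences was not tested.

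The protein-coding genes with the most similar deviations over the 3 libraries were found among 7577 candidates, by Euclidean distance. With 3 libraries, such likeness describes these samples only. For Mir155hg they were Atf3, a stress-induced transcription factor, at a distance of 0.0432, and Slc38a2, an amino acid transporter, at 0.0562. Only 4 candidates lay within 0.1 of Mir155hg. For Ptgs2os2 they were Ifrd1 at 0.134 and Cxcl2, a neutrophil-attracting chemokine, at 0.139, and none lay within 0.1. This profile rests on 20, 8 and 44 expected counts, and in the TPM of the second transcript table replicate 2 was less far below the others. For Mir17hg they were Apbb3 at 0.0859 and Odc1, the first enzyme of polyamine synthesis, at 0.122. For Mir22hg they were Ubl3 and Zfp608, with 19 candidates within 0.1. Mir142hg was nearest to Nmrk1 and Asxl1, and Dleu2 to Rgl1 and Bfar. For these flat profiles 222 and 205 candidates lay within 0.1, so the nearest pair says little.

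The genes that process microRNAs were all present in the chromatin RNA. Of 15 genes for microRNA processing and Argonaute proteins, 15 passed the test against 1 TPM, where 61.1% of protein-coding genes did. The median of the list was 21.5 TPM. The highest were Ddx5 at 861 ± 85.8 TPM and Ddx17 at 265 ± 37.5 TPM, helicases that assist the Drosha complex, and Tnrc6b at 68.0 ± 3.63 TPM, an Argonaute partner in silencing (SD, n = 3 each). The lowest was Xpo5, the exporter of hairpin precursors, at 8.10 ± 1.54 TPM (SD, n = 3).

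Hosts outside the 5 ranged widely. Of 15 protein-coding genes that carry microRNAs in introns or exons, 10 passed, where 61.1% of protein-coding genes tested did. Vmp1, whose end overlaps the miR-21 hairpin, had 455 ± 56.0 TPM (SD, n = 3), above each of the 5 hosts in every library. Dnm2 had 125 ± 3.42 TPM and Smc4, the host of the second miR-15 and miR-16 pair, had 37.4 ± 3.73 TPM (SD, n = 3 each). The 5 that did not pass were AA467197, Ctdspl, Egfl7, Pank1 and Mest, at means of 0.427 to 1.31 TPM, named here after their values were seen. Of 6 other annotated genes named as microRNA hosts, 3 could be tested and 2 passed, where 29.4% of long noncoding genes tested did. Neither list was tested against these shares. Mir99ahg had 80.7 ± 18.0 TPM and Mir133a-1hg 5.61 ± 4.78 TPM (SD, n = 3 each), and Mir670hg had 0.187 TPM. The second transcript table gave 32.1 ± 8.36 TPM for Mir133a-1hg and 17.1 ± 0.754 TPM for Mir670hg (SD, n = 3 each), so their levels depended on the table. In the gene table, Mir99ahg alone of these 6 reached the range of Mir142hg. Without replicate 1, only 1 of the 6 passed.

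Of 14 protein-coding genes beside the 7 loci, 12 could be tested and 9 passed, where 61.1% of protein-coding genes tested did. The list was not tested against that share. Tspoap1, downstream of Mir142hg, had 91.7 ± 27.9 TPM, and Mir142hg had a similar mean, 90.7 ± 27.8 TPM (SD, n = 3 each). The value of Mir142hg rests on 46, 84 and 88 expected counts over a short effective length, against 2560, 6326 and 3593 counts for Tspoap1. By library, Tspoap1 had 75.8, 124 and 75.5 TPM, against 58.8, 110 and 104 TPM for Mir142hg, so the order changed in replicate 3. In the second transcript table the means were 112 ± 37.6 TPM for Tspoap1 and 160 ± 26.6 TPM for Mir142hg (SD, n = 3 each). Wdr81, beside Mir22hg on the other strand, had 24.5 ± 4.10 TPM, against 120 ± 32.7 TPM for Mir22hg (SD, n = 3 each). Gpc5, downstream of Mir17hg, was listed at 0 in every library of the gene table, while the second transcript table gave it 0.551 ± 0.0684 TPM (SD, n = 3). Trim13 and Kcnrg, which lie against the strand of Dleu2, had 4.38 ± 1.28 and 5.18 ± 0.968 TPM (SD, n = 3 each), far below Dleu2.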

How the data were processed

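Per library, 1 table per gene and 2 per transcript were used. Expected counts and TPM, in the column layout of RSEM, fill the gene table and 1 transcript table (the first), per the file headers. The second transcript table gives estimated counts and TPM in the layout of kallisto, per the file headers, and was summed per gene here. The authors' deposited text gives mm10 and annotation M21. No aligner, tool version or use of strand in counting is given in the sources used here, so reads of overlapping genes may be shared.

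Levels were tested one-sided against 1 TPM with an intercept-only limma 3.58.1 model (with a mean-variance trend) of log2(TPM + 0.1) over 24180 genes, Benjamini-Hochberg adjusted at 0.05. On this scale differences of genes near 0.1 TPM are understated. In simulated data of 22388 genes, 0%, 78% and 100% of 50 genes at 1, 2 and 4 TPM passed. The simulation held genes with an effective length of at least 100 bases and a coefficient of variation between libraries of 0.3. Mir142hg is shorter than that, and Mir155hg, Ptgs2os2 and Ptgs2os varied more, so these shares do not describe them. Expected counts were rounded to whole counts for the spread, which came from edgeR 4.0.16 (TMM, filterByExpr) and DESeq2 1.42.0 as an alternative. Total expected counts were 12532722 to 18395358 per library, and 1.04%, 0.425% and 0.401% of them fell in rows that name no gene, which were left out. Poisson intervals (exact, 95%) cover counting error only. R 4.3.3, python 3.11.15 and scipy 1.17.1 were used.

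The genes and lists were chosen with earlier results of these data known. Named genes were the 7 genes, their microRNA genes, Ptgs2, the 3 genes of highest mean TPM in each list, the 2 main transcripts per gene, and, for genes with a mean count of at least 10, the 2 protein-coding genes (mean count of at least 100) with the nearest deviations over libraries. Sequences are from RefSeq GRCm38.p6. The first exons of Mir155hg are not reported here.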

Additional observations from a re-analysis of the deposited data

How the results depend on the processing

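No paired analysis was possible because there was only 1 group. Dleu2, Mir22hg, Mir155hg and Mir142hg passed under all 9 alternatives to the test against 1 TPM (other pseudocounts, a count minimum, 5 TPM as the floor, the second transcript table, rescaled TPM, each replicate left out). Mir17hg turned to -1.004 against 5 TPM, and ran from 0.88 to 1.47 with a replicate left out. Ptgs2os2 turned positive at 0.046 with a pseudocount of 1, 0.91 in rescaled TPM and 2.03 in the second table, and ran from -0.53 to 0.58 with a replicate left out. Only the second table put it past the threshold (limma adjusted p = 0.000252, range over alternatives 0.000252 to 1). Ptgs2os passed under none of 8. TPM rescaled over genes with an effective length of at least 100 bases and without ribosomal RNA gave means of 325 for Dleu2, 261 for Mir155hg, 247 for Mir22hg, 188 for Mir142hg (itself under that length and scaled by the same factor), 5.36 for Mir17hg, 2.41 for Ptgs2os2 and 0.661 for Ptgs2os. The second table gave means of 246 TPM for Dleu2, 160 for Mir142hg and 4.45 for Ptgs2os2. Without replicate 3 the mean was 0.180 TPM for Ptgs2os and 0.775 TPM for Ptgs2os2. With 5 TPM as the floor, 5 of 14 neighbours and 1 of 6 other named hosts passed. In the second table, 4 of those 6, 3 of 12 hairpins and 2 of 10 markers of other cells passed. Of these hairpins, Mir16-1 passed on only 1, 2 and 1 estimated counts in replicates 1, 2 and 3. With a replicate left out, 1 to 2 of the other named hosts passed. Of the 6 adjacent pairs in the order, 3 held in every library, and 3 to 5 with a replicate left out, the 5 without replicate 2. Of 54 values of transcript share or spread under alternatives, 8 moved, all of them shares in the second table. A share was called moved past 1 SD over the 3 libraries, which leaving out 1 replicate cannot reach. Shares of genes with 1 annotated transcript were fixed at 100%. For the other genes, every share of a main transcript moved in the second table, so 8 of 54 does not measure stability. The cause of these changes was not tested. Depth limits Ptgs2os, Ptgs2os2 and Mir142hg, with at most 88 counts per library.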
